A study of Mus musculus with 62 samples.

Results

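The genes described here are 34 genes of the synaptic vesicle and of the machinery that releases neurotransmitter, chosen by symbol out of 47643 symbols in a table of neocortex RNA levels. All 34 were present, and all had a mean of at least 1 TPM and were tested. TPM is the share of a library's transcripts that belong to a gene, corrected for transcript length. They were measured in 62 libraries from female mice that the sample labels give as C57BL6/J and 2 months old. Mice had received cachectic melanoma cells (CAC), which cause the wasting of body mass called cachexia, non-cachectic melanoma cells (NCAC), or a mock injection (Con, here called mock), and were sampled at 2, 4, 6 or 8 weeks, to follow neocortex transcripts while cachexia developed. Each of the 12 groups held 5 libraries except CAC at 8 weeks, which held 7. The design text of the series names another strain, NCI Ath/nude, in which mature T cells are lacking, so the host strain cannot be told from the labels. The melanoma lines are not named, and the tumour cells are the only agent by which the CAC and NCAC groups differ in the labels.

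At a synapse, transmitter is pumped into vesicles by transporters, vesicles are tethered and primed at the active zone, and calcium entry triggers fusion through the SNARE complex. The SNARE proteins of vesicle and plasma membrane are then taken apart by an ATPase and its adaptors, and the vesicle membrane is retrieved by endocytosis. In neocortex most of these genes are expressed in both excitatory and inhibitory neurons, whereas the vesicular glutamate transporter Slc17a7 marks excitatory cells and the vesicular GABA transporter Slc32a1 marks inhibitory cells. In whole tissue, fewer cells of a type and less RNA per cell cannot be told apart.

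The members were grouped by 7 roles, and 27 of 34 had an entry in the RefSeq promoter table of GRCm38.p6, with 36 entries in all. The 250 bases before the RefSeq start had a median GC content of 60% in member promoters and 52.4% in all promoters. The sequences below, written 5′ to 3′ on the gene's strand, belong to 3 genes that were higher in a tumour group at 2 weeks and to the 2 genes that were lower in CAC at 8 weeks. Each gene has a single entry, and its 250 bases share no base with an annotated exon. Capitals mark exact matches, on either strand, to the GC box (GGGCGG or CCGCCC), the E box (CACGTG) and the first part of the cAMP response element (TGACG or CGTCA).
Slc17a7 (chr7:45163671-45163920, plus strand): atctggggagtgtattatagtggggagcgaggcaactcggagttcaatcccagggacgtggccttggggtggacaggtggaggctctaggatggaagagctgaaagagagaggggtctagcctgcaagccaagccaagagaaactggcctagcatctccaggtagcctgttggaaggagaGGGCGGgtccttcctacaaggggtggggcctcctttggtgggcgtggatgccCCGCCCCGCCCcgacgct
Stx1a (chr5:135023232-135023481, plus strand): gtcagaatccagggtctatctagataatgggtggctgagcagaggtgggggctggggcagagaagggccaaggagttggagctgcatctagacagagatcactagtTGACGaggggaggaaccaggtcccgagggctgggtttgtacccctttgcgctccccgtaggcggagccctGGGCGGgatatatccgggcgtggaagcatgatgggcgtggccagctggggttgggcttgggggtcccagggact
Nsf (chr11:103954057-103954306, minus strand): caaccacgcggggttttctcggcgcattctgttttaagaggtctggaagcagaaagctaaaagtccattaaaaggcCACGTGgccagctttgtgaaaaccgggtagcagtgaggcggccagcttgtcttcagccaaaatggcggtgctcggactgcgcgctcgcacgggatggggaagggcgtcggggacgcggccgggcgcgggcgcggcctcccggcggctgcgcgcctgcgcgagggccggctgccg
Rims1 (chr1:22806159-22806408, minus strand): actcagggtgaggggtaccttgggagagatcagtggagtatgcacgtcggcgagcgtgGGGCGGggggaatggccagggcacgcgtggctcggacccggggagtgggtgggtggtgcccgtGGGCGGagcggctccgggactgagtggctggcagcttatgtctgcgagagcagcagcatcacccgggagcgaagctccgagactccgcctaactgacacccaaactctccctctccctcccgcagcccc
Unc13a (chr8:71671758-71672007, minus strand): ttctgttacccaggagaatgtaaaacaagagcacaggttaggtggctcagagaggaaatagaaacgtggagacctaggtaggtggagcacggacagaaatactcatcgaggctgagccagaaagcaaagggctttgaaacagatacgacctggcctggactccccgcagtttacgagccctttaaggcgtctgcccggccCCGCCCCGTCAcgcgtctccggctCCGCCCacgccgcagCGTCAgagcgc
A GC box stood in 4 of these 5 stretches and not in that of Nsf, which held an E box. Over all member promoters a GC box was found in 50%, against 32.7% of 32851 promoters. The whole cAMP response element (TGACGTCA, which contains TGACG) was in 5.6% of member promoters and 1.5% of all, and its part in 16.7% and 17.8%. The E box was in 5.6% and 6.0%, and the TATA box (TATAAA or TTTATA) in 5.6% and 12.4%. These are matches of letters and not measured binding sites.

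Most members were among the most abundant mRNAs of the tissue. Levels are means over the 62 libraries in TPM, a unit that is scaled by transcript length, so genes can be compared. In all, 9 of 34 had a mean of at least 500 TPM and 6 had a mean under 100 TPM. Among the SNARE proteins, the plasma membrane gene Snap25 had 1204 TPM and ranked 46 of 14494 tested genes, the vesicle gene Vamp2 868, the plasma membrane gene Stx1a 257 and the second vesicle SNARE Vamp1 50.4. The complexin genes, whose proteins clamp and promote fusion, had 1043 (Cplx1) and 899 (Cplx2). Nsf, the ATPase that separates used SNAREs, had 288 and its adaptor Napb 243.

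Among the synaptotagmin genes (Syt), Doc2b and Rph3a, the fast calcium sensor Syt1 led with 565 TPM. It was followed by Syt11 with 488, the Rab3 effector Rph3a with 297, Syt4 with 186, the slow sensor Syt7 with 143 and Doc2b with 29.8. The active zone genes were lower: the vesicle priming gene Rims1 had 106, the scaffold Bsn 97.6, the priming gene Unc13a 81.8 and the scaffold Pclo 41.4. The vesicle membrane genes ranged from Syp, with 731, and the small GTPase Rab3a, with 653, down to the synapsin Syn3 with 3.13. Between these lay Syn1 with 472, Syngr1 with 365, Sv2a with 326, Syngr3 with 220 (219.5 before rounding), Syn2 with 199, Sv2b with 167 and Rab3c with 137. The glutamate transporter Slc17a7 had 1062 and the GABA transporter Slc32a1 134. Of the endocytosis genes, the membrane-scission GTPase Dnm1 had 650 TPM, the lipid phosphatase Synj1 156, Amph 141 and Sh3gl2 120 (120.1 before rounding).

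Depth, estimated from steps of the low TPM values, was 45.02 M to 50.76 M reads per library. Several libraries stood apart in markers of tissue that neighbours the neocortex, or of blood. Replicate 5 of mock at 2 weeks was 2.33 above the median of all libraries in mean log2(TPM + 1) of thalamus markers, and 5.67 above it in hypothalamus and pituitary markers. Replicate 3 of mock at 2 weeks was 2.44 above it in olfactory markers. Replicate 1 of CAC at 4 weeks was 3.28 below it in striatum markers (a difference of -3.28), and replicate 3 of CAC at 8 weeks was 4.16 above it in erythroid markers. Replicate 5 of mock at 2 weeks and the last 2 of these are called the 3 libraries that stand apart. In excitatory neuron markers (without Slc17a7), replicates 5 and 1 of mock at 2 weeks were the lowest of all libraries. They were at -0.629 and -0.565 from the median. Replicate 1 of mock at 2 weeks also had the lowest mean log2(TPM + 1) of the members, 7.565. It is not among the 3 libraries that stand apart. Libraries of other groups also departed from the median. CAC replicate 1 at 6 weeks was at 2.48 and NCAC replicate 1 at 4 weeks at 2.44 in hypothalamus and pituitary markers. At 8 weeks CAC replicate 4 was at -2.77 in erythroid markers and CAC replicate 5 at 2.07 in olfactory markers. The summed TPM of 10 excitatory cortical neuron markers was 1648 to 3239 over all libraries, that of 8 striatum markers 181 to 2319 and that of 7 thalamus markers 35.7 to 325. All libraries of week 2 share sequencing lane 3 and all of weeks 6 and 8 share lane 4. At 4 weeks CAC was on lane 3, mock on lane 4 and NCAC on both (4 and 1 libraries), so CAC and mock share no lane there. Within the mock arm, lane and the step from 2 weeks to later weeks cannot be told apart.

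In TPM as deposited, the mock group at 2 weeks had the lowest mean level of 23 of the 34 genes among the 12 groups. CAC at 8 weeks had the highest mean level of 16 of them. Taken over all 34 genes, the mean log2(TPM + 1) of a library was 7.62 ± 0.05 (SD, n = 5) in mock at 2 weeks, with a range of 7.57 to 7.69. It was 7.80 ± 0.08 in CAC and 7.80 ± 0.07 in NCAC at 2 weeks (n = 5 each). The other 9 group means lay between 7.75 (NCAC at 4 weeks) and 7.87 (CAC at 8 weeks). With trimmed-mean scaling of the libraries the mock mean at 2 weeks was 7.67 and the others were 7.75 to 7.82. After that scaling CAC at 8 weeks was no longer the highest group and lay below NCAC at 2, 6 and 8 weeks. Within the mock arm, 27 of 34 genes had their lowest mean at 2 weeks in TPM as deposited. For these counts of 23, 16 and 27 genes, the share over all tested genes was not counted. They therefore cannot be read as particular to the members. The factors of trimmed-mean scaling, which apply to every gene of a library, were 0.9135 to 1.018 in mock at 2 weeks and 0.9956 to 1.091 in CAC at 8 weeks.

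**Figure D1:**
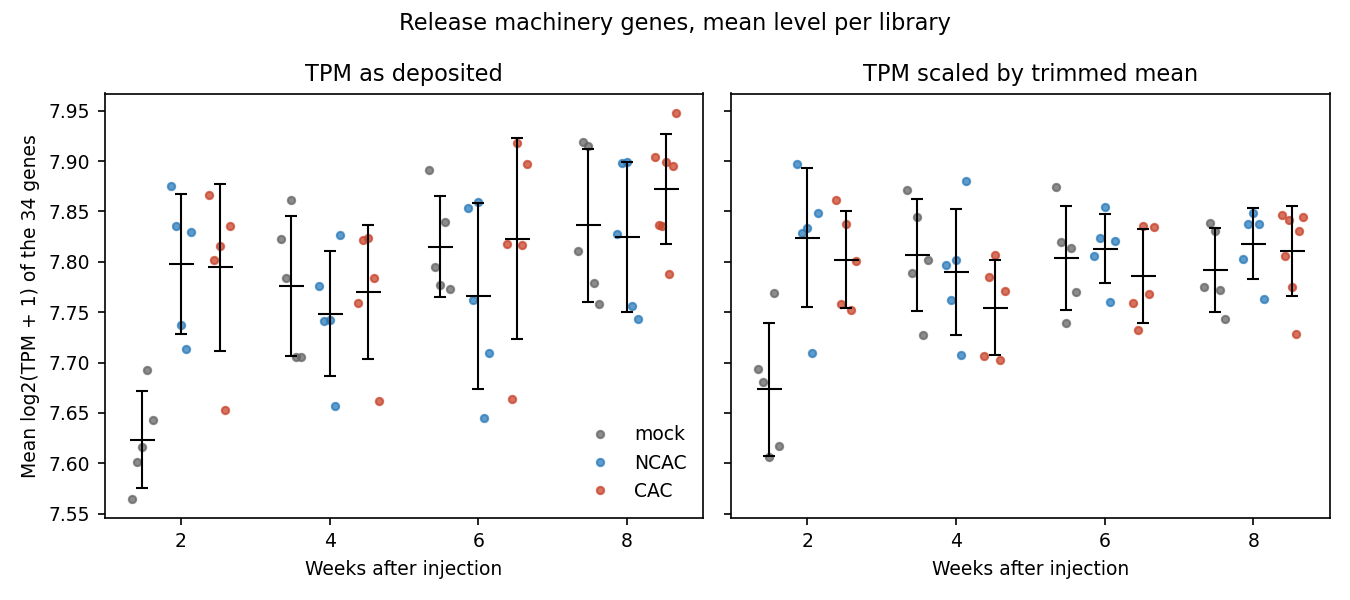
Mean log2(TPM + 1) of the 34 genes in each library against weeks after injection, for TPM as deposited (left) and after trimmed-mean scaling (right). Points are libraries of mock (grey), NCAC (blue) and CAC (red), and bars are group mean ± SD (n = 5, or 7 for CAC at 8 weeks). On the left, the 5 mock libraries of week 2 lie between 7.57 and 7.69, and 1 CAC library of that week, at 7.65, lies among them.

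At 2 weeks the glutamate transporter gene Slc17a7, the calcium sensor gene Syt1 and the SNARE genes Snap25, Stx1a and Vamp2 were among the genes higher in CAC than in mock neocortex. Of the 34 genes 10 rose and none fell, which is 29.4% against 4.28% called among all tested genes (3.68% higher and 0.6% lower). The median log2 difference of the 34 was 0.16 and that of all genes 0.04. All 34 were fitted with the other genes by limma, and a call is an adjusted p under 0.05 over all 14494 genes. By role, 3 of 4 SNARE genes rose, 3 of 10 vesicle membrane genes and 1 of the 6 synaptotagmin, Doc2b and Rph3a genes. Among the rest, 1 of 4 complexin and recycling genes, 1 of 2 transporters and 1 of 4 endocytosis genes rose. No active zone gene of 4 was called, and their differences were 0.11 to 0.20. Negative values, none of them called, were found for Doc2b, Rab3c and Slc32a1.

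The vesicular glutamate transporter gene Slc17a7 (chromosome 7, 45163949 to 45176142, plus strand, GRCm38) had 758, 846, 870.1, 1042 and 529 TPM in the 5 mock libraries of week 2. In CAC it had 1141, 1007, 1074, 929.6 and 1188. Mock replicate 4 lay within the range of CAC, and the other 4 mock libraries lay below all CAC libraries. The log2 difference was 0.43 ± 0.09 (SE, n = 5 each, adjusted p = 0.00718). Sv2b (chromosome 7, 75114894 to 75309262, minus strand), a vesicle glycoprotein gene, had 101, 125, 124, 136 and 94.1 TPM in mock and 176, 172, 162, 137 and 172 in CAC. These ranges did not overlap, by a narrow margin. Its difference was 0.50 ± 0.11 (adjusted p = 0.00718), the largest among the members in this comparison.

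The calcium sensor gene Syt1 (chromosome 10, 108497650 to 109010982, minus strand) had 414, 460.2, 482, 492.5 and 423 TPM in mock and 608, 569.7, 571, 514 and 606 in CAC. No mock library reached the lowest CAC library. The log2 difference was 0.34 ± 0.07 (adjusted p = 0.0075). Snap25 (chromosome 2, 136713453 to 136782428, plus strand) had 823, 957, 949.6, 1107 and 867 TPM in mock against 1438, 1191, 1142, 1070 and 1410 in CAC, with an overlap of 1 library on each side. Its difference was 0.41 ± 0.09 (adjusted p = 0.00883). The synapsin gene Syn1, whose protein ties vesicles to actin, rose by 0.25 ± 0.06 (adjusted p = 0.0115), from 372, 392, 406, 478 and 386 TPM to 536, 464, 485, 426 and 507. For Syn1, 2 CAC libraries lay below the highest mock library.

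The remaining 5 calls had a higher p. Stx1a, the syntaxin gene, rose by 0.37 ± 0.11 (adjusted p = 0.0367), Dnm1 by 0.27 ± 0.07 (adjusted p = 0.0175), Rab3a by 0.22 ± 0.05 (adjusted p = 0.0193), Cplx1 by 0.17 ± 0.05 (adjusted p = 0.042) and Vamp2 by 0.14 ± 0.04 (adjusted p = 0.0365). Of 19 alternative settings, the call was lost in 12 for Vamp2, 11 for Cplx1, 10 for Stx1a and 7 each for Syn1 and Rab3a. It was lost in 6 for Dnm1, 5 for Snap25 and 3 each for Syt1, Sv2b and Slc17a7. With trimmed-mean scaling Vamp2, Cplx1, Stx1a, Syn1 and Rab3a were not called. All CAC libraries lay above all mock libraries for 4 of 34 genes (11.8%), against 3.04% of all tested genes. These 4 were Syt1, Sv2b, Napb and Amph, of which Napb (0.25, adjusted p = 0.0656) and Amph (0.18, adjusted p = 0.11) were not called.

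NCAC at 2 weeks, compared with the same 5 mock libraries, had higher levels of 14 of 34 genes and lower levels of none, 41.2% against 8.71% of all tested genes (5.87% higher and 2.84% lower). Both comparisons rest on the same mock libraries and are not independent. The median difference of the 34 was 0.17 and that of all genes 0.02. By role, 3 of the 6 synaptotagmin, Doc2b and Rph3a genes rose, 2 of 4 SNARE genes and 3 of 4 complexin and recycling genes. So did 4 of 10 vesicle membrane genes, 1 of 2 transporters and 1 of 4 endocytosis genes, but none of 4 active zone genes.

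In NCAC, Slc17a7 had 1181, 1079, 1140, 912 and 1155 TPM, a difference of 0.46 ± 0.09 from mock (adjusted p = 0.00348). The highest mock library, at 1042, was above 1 NCAC library. Sv2b had 200.3, 173, 154, 142 and 176 TPM, all above mock, with a difference of 0.54 ± 0.11 (adjusted p = 0.00365). Syt1 had 622, 598, 536, 522 and 603, again all above mock (0.34 ± 0.07, adjusted p = 0.00507). Syn1 had 498, 514, 517, 431 and 512 (0.28 ± 0.06, adjusted p = 0.00399). Replicate 4 was the lowest NCAC library for each of Slc17a7, Sv2b, Syt1 and Syn1. Rab3a, a GTPase of vesicle docking, had 656, 747, 639, 594 and 675 TPM against 555, 520.4, 492.6, 609 and 590.1 in mock (0.26 ± 0.05, adjusted p = 0.00507), with 1 library overlapping.

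The other genes called in NCAC at 2 weeks were Snap25 (0.34 ± 0.09, adjusted p = 0.0179), Napb (0.31 ± 0.08, adjusted p = 0.0196), Syt4 (0.29 ± 0.08, adjusted p = 0.0319), Nsf (0.25 ± 0.07, adjusted p = 0.0219) and Dnm1 (0.23 ± 0.07, adjusted p = 0.0306), with Syp, Cplx2, Syt11 and Vamp2 between 0.14 and 0.23. Syp and Syt4 share 16.8% and 14.5% of their exon bases with unnamed gene models on the opposite strand, which had 0.801 and 0.26 TPM. Of 19 alternative settings, the NCAC call was lost in 11 for Cplx2 and Syt11, 10 for Syt4 and 9 for Vamp2 and Dnm1. For the other called members it was lost in 2 (Rab3a) to 8 (Syp). Syt1, Sv2b and Napb had every NCAC library above every mock library, which is 8.82% of the 34 against 2.79% of all tested genes.

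**Figure D2:**
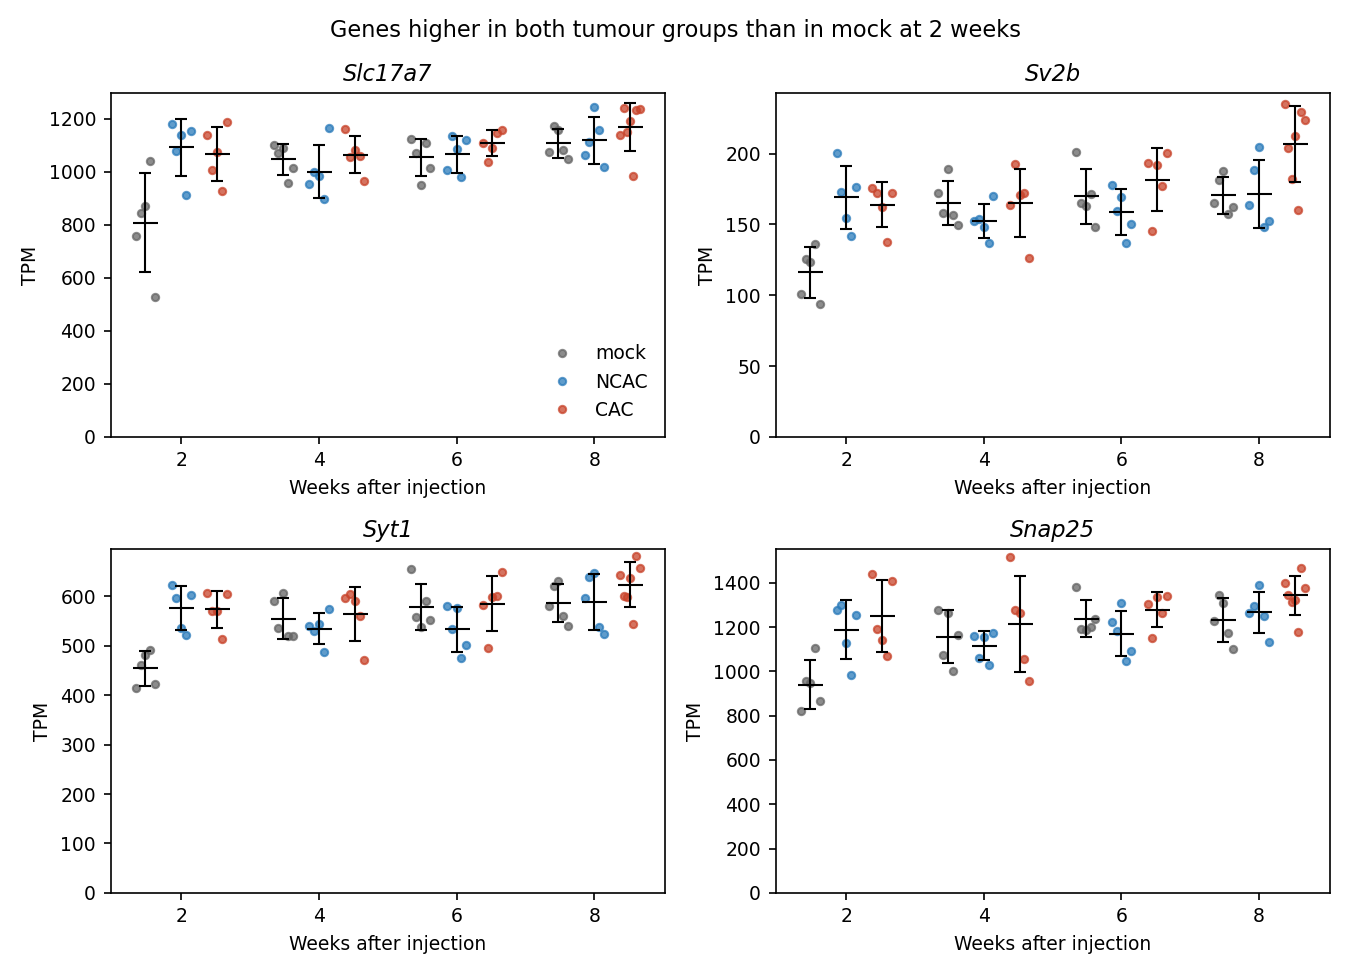
TPM of Slc17a7, Sv2b, Syt1 and Snap25 in each library against weeks after injection, with mock in grey, NCAC in blue, CAC in red and bars for group mean ± SD (n = 5, or 7 for CAC at 8 weeks). The mock group of week 2 is the lowest group in every panel, at a mean of 809 TPM for Slc17a7, 116 for Sv2b, 454 for Syt1 and 941 for Snap25.

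No difference between the tumour groups was detected at 2 weeks by limma. No member was called in CAC against NCAC, none of the 14494 genes was (0%), and no member had an unadjusted p under 0.05. The differences of the 34 genes ran from -0.17 to 0.19. The members with the lowest p were Syt4 at -0.16 (95% confidence interval -0.33 to 0.01, adjusted p = 0.998) and Unc13a at 0.18 (interval -0.02 to 0.38, adjusted p = 0.998).

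The 2 week calls against mock depended on how the spread was estimated and on the mock libraries. With the spread taken from the compared groups alone, none of the 34 genes was called in either tumour group, and over all genes 0 were called in CAC and 7 in NCAC. Without mock replicates 3 and 5, a choice made after seeing the data, no member was called in either group and over all genes 0 were called in CAC and 22 higher and 1 lower in NCAC, while the mean difference over the 34 genes was 0.175 in CAC and 0.179 in NCAC, against 0.171 and 0.175 with them. In that setting Slc17a7 moved from 0.43 to 0.28 in CAC (adjusted p = 0.0883) and from 0.46 to 0.32 in NCAC (adjusted p = 0.0655), while Syt1 was 0.33 in CAC (adjusted p = 0.0729). Mock replicate 1, which was also low in excitatory neuron markers, was kept there. With trimmed-mean scaling 5 members were called in CAC, all of them among the 10, and 14 in NCAC, of which 12 were among the 14 (Vamp2 and Cplx2 were lost, Syngr1 and Sh3gl2 gained). Without the 3 libraries that stand apart 9 members were called in CAC and 14 in NCAC. Over all genes that setting gave 331 higher and 22 lower in CAC, from 533 and 87. In NCAC it gave 921 and 321, from 851 and 411. Single libraries also moved the counts, to 3 in CAC without its replicate 1 or 5, to 5 without mock replicate 1, to 5 in NCAC without its replicate 1, 2 or 5, and to 9 without mock replicate 2 or 3.

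Markers of other cell classes moved at 2 weeks as well. Of 10 excitatory neuron markers, which include Slc17a7, all 10 were positive and 4 were called higher in each tumour group, with medians of 0.42 in CAC and 0.40 in NCAC. Among them, Tbr1 rose by 0.48 in CAC (adjusted p = 0.0103) and by 0.44 in NCAC (adjusted p = 0.012). The summed TPM of the 10 was 2628 to 3176 in CAC, 2416 to 2943 in NCAC and 1648 to 2889 in mock. Of 4 endothelial markers 2 fell in CAC and 4 in NCAC, and their sum was 96.6 to 132 in CAC, 75.6 to 111 in NCAC and 104 to 143 in mock. None of 5 astrocyte, 5 microglia or 5 oligodendrocyte markers was called, though all were negative in both groups. None of 8 inhibitory neuron markers was called, with medians of 0.03 in CAC and 0.04 in NCAC and sums of 1436 to 1797, 1449 to 1896 and, in mock, 1383 to 1710. In NCAC 2 of 7 choroid plexus markers rose and 1 of 7 thalamus markers fell, and in CAC none of either was called. The 8 tested hypothalamus and pituitary markers were not called but had medians of -1.64 in CAC and -2.06 in NCAC, with a mock sum of 32.5 to 3827, and the hormone genes Gh and Prl were at 0 in NCAC. With 6 marker lists of neighbouring tissues and blood as terms in the fit (choroid plexus, striatum, thalamus, hypothalamus and pituitary, olfactory, erythroid), no member was called in CAC and 1 (Rab3a) in NCAC, where over all genes 3 were called in CAC and 73 higher and 5 lower in NCAC, at mean differences over the 34 genes of 0.168 and 0.171. What part tissue makeup has in the differences was not tested.

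**Figure D3:**
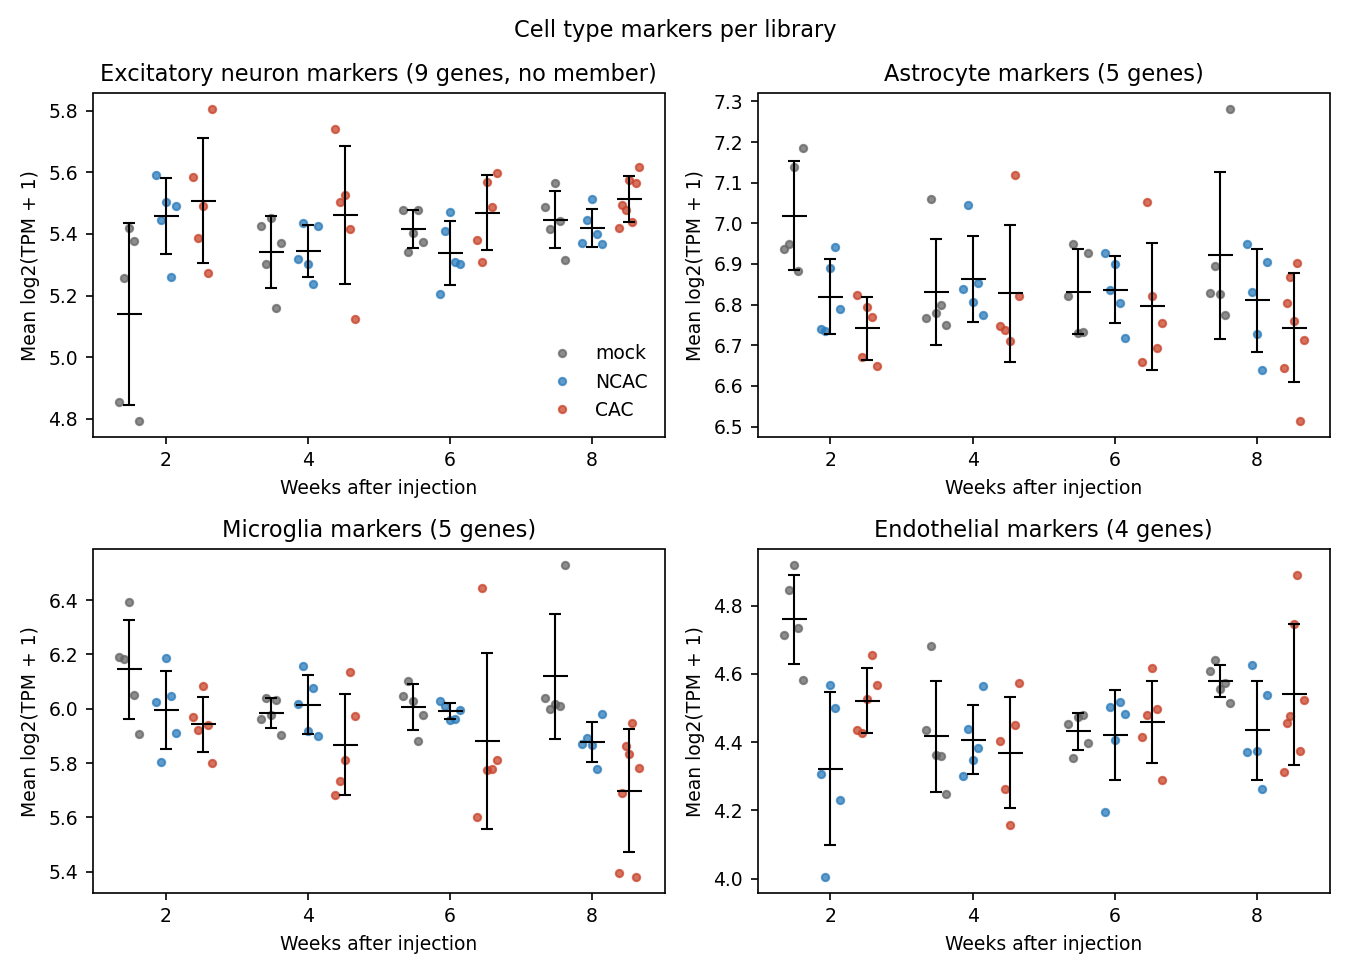
Mean log2(TPM + 1) of cell type markers in each library against weeks after injection, for excitatory neurons (without the member Slc17a7), astrocytes, microglia and endothelium, with mock in grey, NCAC in blue, CAC in red and bars for mean ± SD. At 2 weeks 3 of 5 mock libraries lie below all CAC and NCAC libraries for excitatory neuron markers, and 4 of 5 lie above them for endothelial markers.

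At 4 weeks no member was called by limma in any of the 3 comparisons. Called genes in all were 0.0414% in CAC against mock, 0% in NCAC against mock and 0.0069% in CAC against NCAC. Of all genes 13.1%, 0.614% and 16.3% had an unadjusted p under 0.05, and of members 2 (5.88%), 0 and 2 (5.88%). The lowest p in CAC against mock were those of Vamp1 at 0.26 (adjusted p = 0.295) and Syt7 at 0.15 (adjusted p = 0.342). In NCAC against mock they were Syn2 at -0.09 and Cplx1 at 0.07 (adjusted p = 1 for both). In CAC against NCAC they were Syt7 at 0.20 (adjusted p = 0.162) and the GABA transporter Slc32a1 at -0.28 (adjusted p = 0.276). CAC replicate 1, low in striatum markers, had the lowest Slc32a1 value of that group, 67.6 TPM. The mean difference over the 34 genes was -0.01 in CAC and -0.03 in NCAC against mock, and with lane as a term it was 0.0923 and 0.0512. NCAC at 4 weeks is the only group on both lanes, with 1 library, replicate 5, on lane 4. The lane term therefore rests on that library against the 4 on lane 3.

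At 6 weeks no member was called in CAC against mock, where 1.63% of all genes were (1.2% higher and 0.428% lower). An unadjusted p under 0.05 was found for 14% of all genes and for 3 members (8.82%). The 2 with the lowest p were both active zone priming genes with negative differences, Rims1 at -0.28 ± 0.09 (adjusted p = 0.077) and Unc13a at -0.25 ± 0.10 (adjusted p = 0.206). In NCAC against mock none of the genes was called (0%), and 1 member (2.94%, against 6.58% of all genes) had an unadjusted p under 0.05. The lowest p among members belonged to Syt4 at -0.19 and Syngr1 at -0.12 (adjusted p = 0.662 for both).

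CAC against NCAC at 6 weeks gave 3 called members, 8.82% against 9.65% of all tested genes (8.05% higher and 1.6% lower), a share near the background. Rims1, whose protein organises vesicle priming at the active zone, fell by 0.26 ± 0.09 on the log2 scale (adjusted p = 0.0453), with 70.3, 84.2, 114, 83.7 and 92.6 TPM in CAC and 97.7, 111, 114, 93.7 and 112 in NCAC. Its CAC replicate 3 was as high as the top NCAC libraries. Syn3 rose by 0.36 ± 0.12 (adjusted p = 0.0491), with 3.39, 2.58, 4.27, 3.65 and 4.06 TPM in CAC and 3.44, 2.30, 2.99, 2.03 and 2.14 in NCAC, so that the groups overlapped. Synj1, the phosphatase that uncoats endocytosed vesicles, rose by 0.24 ± 0.08 (adjusted p = 0.0486). Synj1 had 170.2, 139, 184, 175 and 188 TPM in CAC and 160.0, 140.3, 157, 130.0 and 137 in NCAC, with 1 CAC library inside the NCAC range. Each of these 3 calls was lost in 10 or 11 of 18 alternative settings, and the removal of CAC replicate 1, 4 or 5 or of NCAC replicate 2 or 5 ended all 3.

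At 8 weeks the active zone genes Rims1 and Unc13a were lower in CAC than in mock. Of the 34 genes 2 fell and 2 rose, 11.8% against 8.6% of all tested genes (4.91% higher and 3.69% lower), and the median difference of the 34 was 0.04 against 0.02 for all genes. The other active zone members, both scaffold genes, gave 0.07 (Bsn) and -0.02 (Pclo) and were not called. The count of 4 was 2 without CAC replicate 1 or 6 and 7 without CAC replicate 5 or mock replicate 2.

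Rims1 (chromosome 1, 22286251 to 22805994, minus strand) had 116, 114, 117, 114 and 111 TPM in mock at 8 weeks. In the 7 CAC libraries it had a lowest value of 84.6, a median of 87.3 and a highest of 102. NCAC had 112, 109, 91.1, 103 and 119. All CAC libraries lay below all mock libraries, while NCAC overlapped both groups. The difference of CAC from mock was -0.35 ± 0.08 (SE, n = 7 and 5, adjusted p = 0.00293), and it was called in all 20 alternative settings, between -0.38 and -0.34.

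Unc13a (chromosome 8, 71624417 to 71671757, minus strand), whose protein opens syntaxin for fusion, had 97.5, 98.9, 107, 91.6 and 84.7 TPM in mock. In CAC its lowest, median and highest values were 67.2, 75.0 and 83.5. NCAC had 80.5, 99.8, 81.4, 73.1 and 94.1, which again overlapped both groups. Mock at 8 weeks had the highest mean of the 12 groups for Unc13a, 95.98 TPM, and CAC at 6 weeks the lowest, 70.41. Within mock, all 4 active zone genes were higher at 8 than at 4 weeks, by 0.142 to 0.219, and none was called. The Unc13a difference of CAC from mock at 8 weeks was -0.35 ± 0.09 (adjusted p = 0.0113). It was called in 20 of 20 alternatives, between -0.39 and -0.31. Rims1 and Unc13a were the only members with every CAC library below every mock library, 5.88% of the 34 against 1.77% of all tested genes. Unc13a shares 3.9% of its exon bases with Colgalt1 on the opposite strand, which had 41.1 TPM and a difference of -0.06 (adjusted p = 0.796).

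A further pair of genes was higher in CAC at 8 weeks, and both calls were less stable. Syn3 had 3.01, 3.45, 3.27, 2.97 and 3.03 TPM in mock and a lowest, median and highest value of 2.94, 4.11 and 6.12 in CAC, so that 1 CAC library lay below all of mock. Its difference was 0.40 ± 0.11 (adjusted p = 0.0192), and without CAC replicate 1 (0.33, adjusted p = 0.0719) or replicate 6 (0.35, adjusted p = 0.062) it was no longer called. Syn3 shares 14.1% of its exon bases with Timp3, a protease inhibitor gene on the opposite strand with a mean of 53.3 TPM. Timp3 differed by 0.23 (adjusted p = 0.178), and how far its reads enter the Syn3 value was not tested. Amph, a curvature-sensing gene of endocytosis, had 140.4, 154, 148, 133 and 129 TPM in mock and 142, 168 and 174 as lowest, median and highest in CAC. It rose by 0.19 ± 0.06 (adjusted p = 0.0419), with overlap, and the call was lost in 11 of 20 alternatives, among them the removal of CAC replicate 1, 2, 4, 6 or 7 or of mock replicate 1, 4 or 5.

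**Figure D4:**
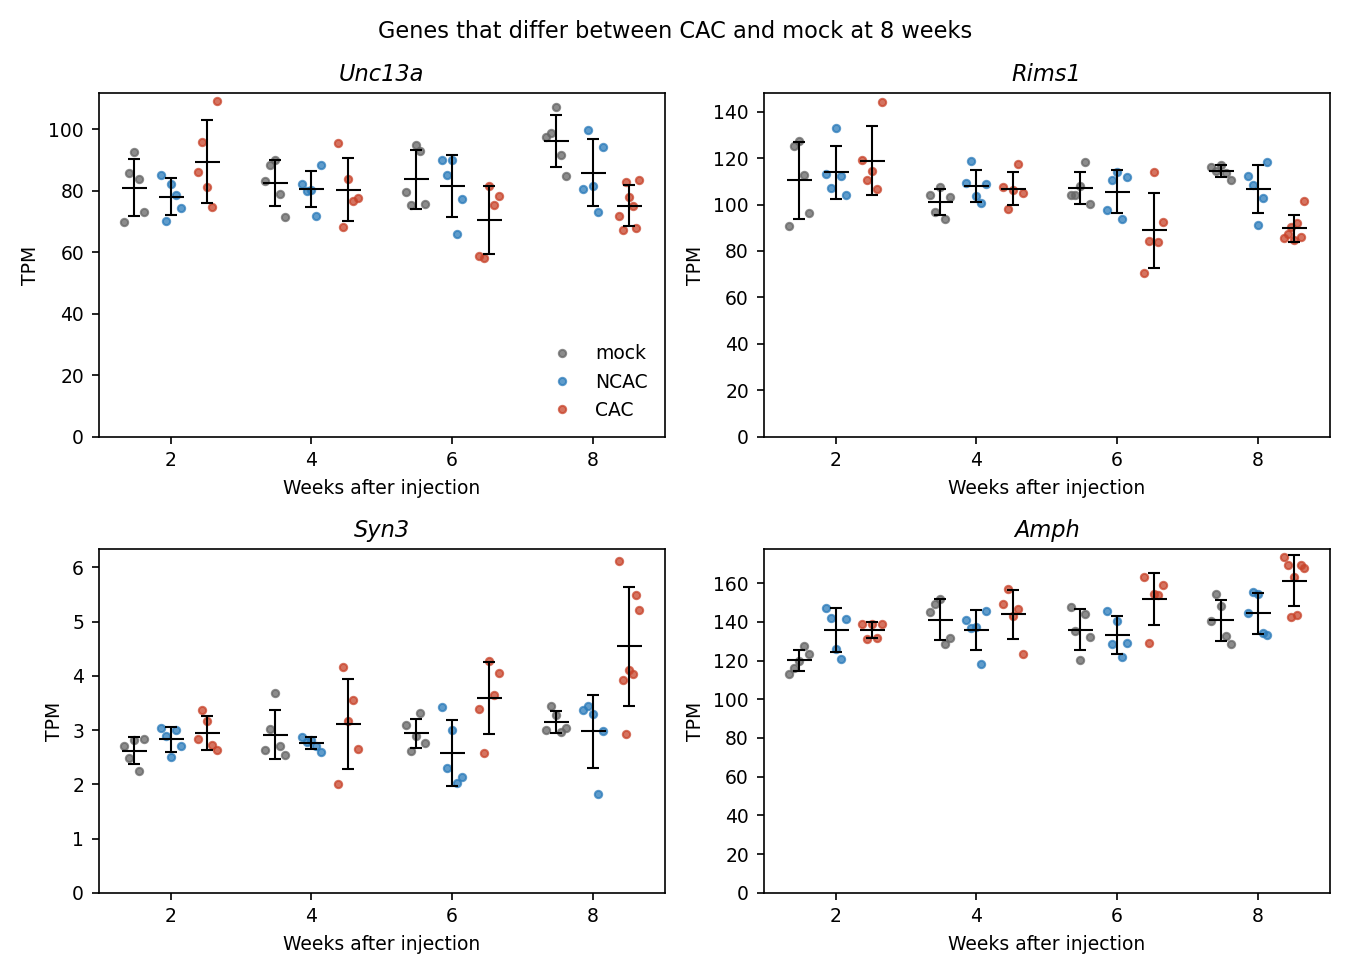
TPM of Unc13a, Rims1, Syn3 and Amph in each library against weeks after injection, with mock in grey, NCAC in blue, CAC in red and bars for group mean ± SD (n = 5, or 7 for CAC at 8 weeks). At 8 weeks the CAC libraries of Rims1 (84.6 to 102 TPM) and Unc13a (67.2 to 83.5 TPM) lie below all mock libraries, and those of Syn3 and Amph reach above them.

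In CAC at 8 weeks 3 of 5 microglia, 2 of 5 astrocyte and 1 of 5 oligodendrocyte markers were lower than in mock, with medians of -0.35, -0.16 and -0.28. Of 8 inhibitory neuron markers 1 was called lower, while 7 were positive and the median was 0.04, and none of 10 excitatory markers was called. The summed TPM was 260 (259.7 before rounding) to 359.9 for microglia in CAC against 366 to 542 in mock, 577 to 745 (744.5 before rounding) for astrocytes against 657 to 948, and 2728 to 3239 for excitatory markers against 2683 to 2863. The part of these cell types in the Rims1 and Unc13a values was not tested. The fit with terms for neighbouring tissues and blood, which holds no glial markers, gave -0.36 for Rims1 (adjusted p = 0.00144) and -0.365 for Unc13a (adjusted p = 0.00543). NCAC against mock at 8 weeks gave no called gene by limma (0%) and no member with an unadjusted p under 0.05. The lowest p were those of Rab3a at 0.10 and Vamp2 at 0.07 (adjusted p = 0.896 for both). Rims1 was at -0.10 (interval -0.28 to 0.07) and Unc13a at -0.17 (interval -0.37 to 0.04).

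CAC against NCAC at 8 weeks gave 1 called member, Syn3, 2.94% of the 34 against 6.02% of all genes (4.39% higher and 1.64% lower). Syn3 had 3.38, 3.45, 3.29, 1.82 and 2.98 TPM in NCAC and was 0.47 ± 0.11 higher in CAC (adjusted p = 0.00647). The library at 1.82 was NCAC replicate 4, without which the difference was 0.35 and no longer called (adjusted p = 0.0678). Rims1 was at -0.24 ± 0.08 (adjusted p = 0.0525) and Unc13a at -0.19 ± 0.09 (adjusted p = 0.238), neither called. Leaving out the 3 libraries that stand apart gave 7 called members in this comparison, Vamp1, Bsn, Syn3, Sv2b, Amph and Dnm1 higher and Rims1 lower. It gave 7 against mock, with Sv2b, Rab3a and Dnm1 added as higher. Calls over all genes rose as well in that setting, to 1519 higher and 456 lower against NCAC, from 636 and 237. Against mock they rose to 1250 and 770, from 712 and 535. The count of called members against NCAC was 5 without CAC replicate 3 and 2 without CAC replicate 5 or 7. It was 6 without NCAC replicate 3 and 0 without NCAC replicate 4.

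**Figure D5:**
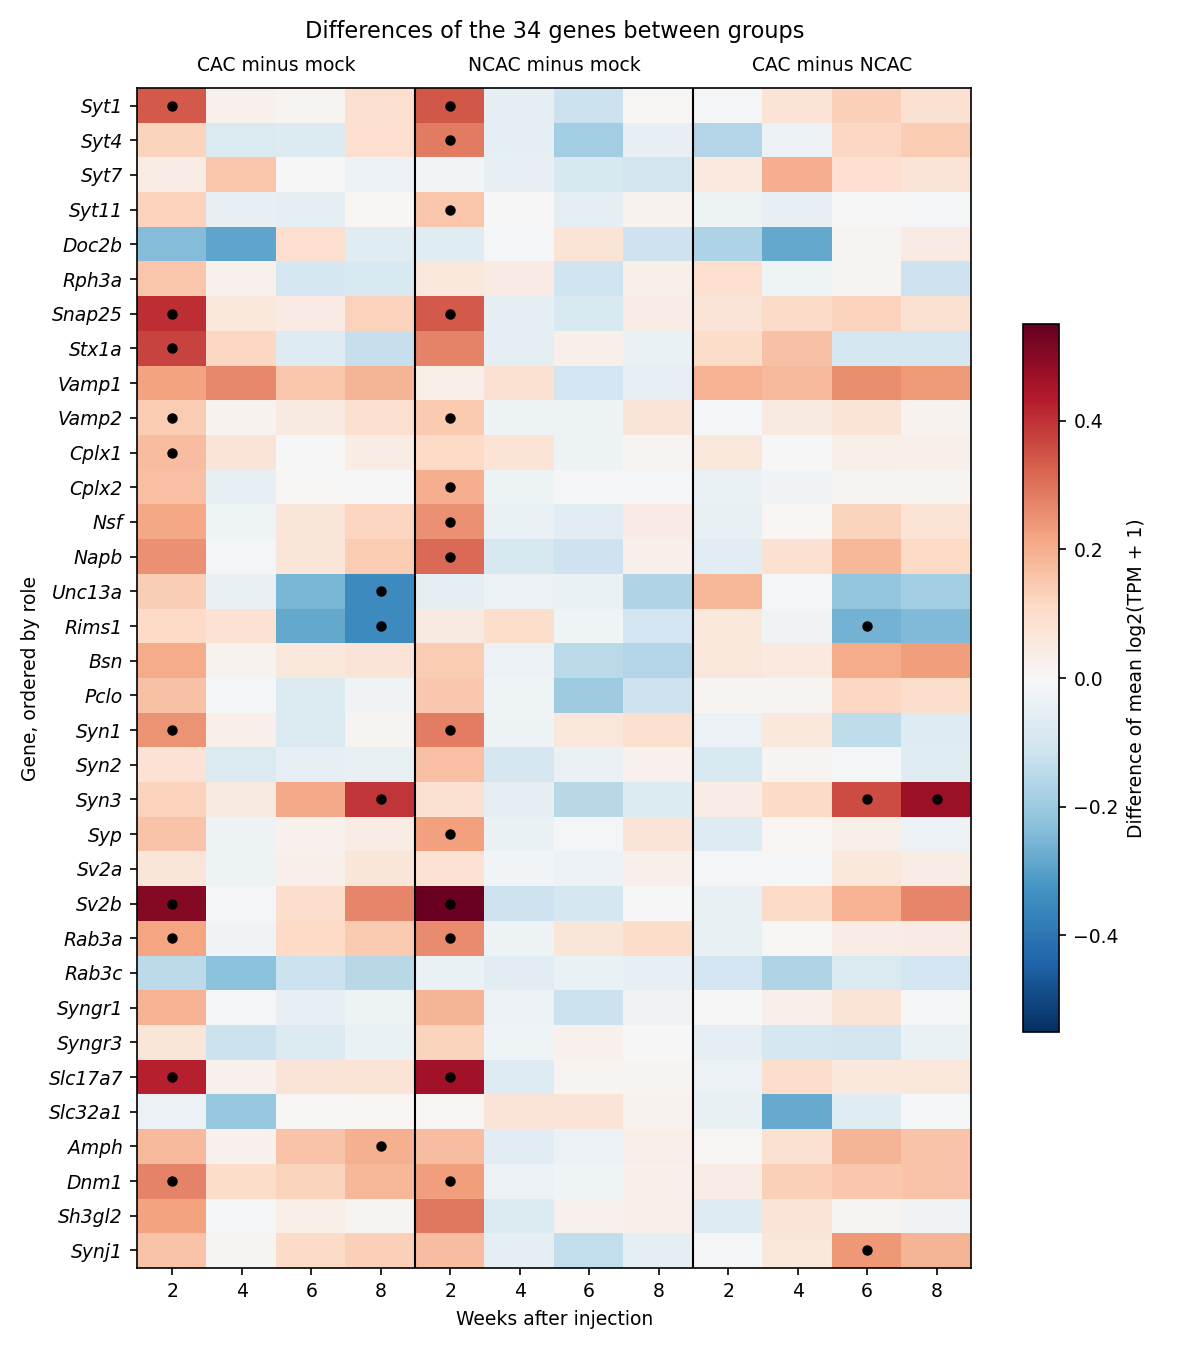
Difference of mean log2(TPM + 1) for the 34 genes, in rows by role, in 12 comparisons within a week, in columns by weeks after injection. Red is higher and blue lower in the group named first, and a black dot marks an adjusted p under 0.05 over all tested genes. The dots stand at 2 weeks against mock (10 and 14 genes), and at 6 and 8 weeks for CAC.

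How far CAC stood from mock at 8 weeks was also tested directly against the distance at 2 weeks. This change was called for 1 member, Rims1, at -0.46 ± 0.12 (adjusted p = 0.0333), 2.94% against 1.32% of all genes (0.607% higher and 0.711% lower). That call was lost in 16 of 31 alternatives, including the removal of CAC replicate 1 or 5 or mock replicate 1 or 5 of week 2, of CAC replicate 1, 2 or 6 of week 8, or of mock replicate 1, 2, 3 or 4 of week 8. Unc13a changed by -0.49 with an adjusted p = 0.0571 and was not called. From 6 to 8 weeks no gene was called (0%), and no member had an unadjusted p under 0.05. For NCAC, a comparison added after seeing the data, no gene was called for the change from 2 to 8 weeks (0%). Of the members, 33 of 34 values were negative and 14 (41.2%) had an unadjusted p under 0.05. Of all genes, 35.8% were positive and 10.5% had an unadjusted p under 0.05. This change uses the same mock libraries of week 2, so it is not independent of the differences at 2 weeks. The largest member changes were Sv2b at -0.54 and Slc17a7 at -0.45 (adjusted p = 0.344 for both). Mock at 8 weeks against mock at 4 weeks gave no called gene (0%). With the spread taken from these 2 groups alone, 111 genes were called higher and 16 lower. An unadjusted p under 0.05 was found for 14.2% of all genes and for 3 members (8.82%). Of the members, Syt7 at 0.17 (adjusted p = 0.295) and Unc13a at 0.22 (adjusted p = 0.315) had the lowest p.

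The 2 transporters are given over all weeks, without a test between them. Slc17a7 had its lowest group mean in mock at 2 weeks, 809 ± 188 TPM (SD, n = 5), with the other 11 groups between 999.8 (NCAC at 4 weeks) and 1169 (CAC at 8 weeks). Neighbours among those 11 differed by less than their SD. Slc32a1 had 165, 116, 109, 112 and 160.3 TPM in mock at 2 weeks, 113, 147, 121, 141 and 136 in NCAC and 136, 153, 142, 112 and 101 in CAC. Its 12 group means lay between 127 and 147 TPM, and it was called in no comparison. At 2 weeks its difference from mock was -0.03 in CAC (interval -0.29 to 0.23) and 0.01 in NCAC (interval -0.25 to 0.27).

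A list of 67 other genes of vesicles and release, of which 66 were tested, was set beside the members. In CAC against mock at 2 weeks 5 of 66 (7.58%, against 4.28% of all genes) rose and none fell, with a median of 0.11 against 0.04 for all genes. They included Napa, a recycling adaptor (0.23, adjusted p = 0.0106), the presynaptic gene Sncb (0.25, adjusted p = 0.032) and the proton pump subunit Atp6v1b2 (0.21, adjusted p = 0.0407). In NCAC 16 (24.2%, against 8.71%) rose and none fell, with a median of 0.10 against 0.02. Among those with the lowest p were the vesicle priming gene Cadps2 (0.47, adjusted p = 0.00791), the synaptotagmin Syt5 (0.22, adjusted p = 0.0118) and Atp6v1b2 (0.24, adjusted p = 0.0167). At 4 weeks no gene of the list was called. At 6 and 8 weeks 1 gene of the list (1.52%) was called in each comparison of CAC, against 1.63% to 9.65% of all genes. It was Tprgl, a synaptic vesicle protein gene, higher in CAC than in mock by 0.26 (adjusted p = 0.00278) and 0.32 (adjusted p = 1.02e-05). It was also higher in CAC than in NCAC, by 0.21 (adjusted p = 0.0117) and 0.28 (adjusted p = 0.000119). The active zone genes Rims2, Rims3, Rims4, Unc13b and Unc13c, relatives of the 2 members that fell, were on this list and not called in CAC at 8 weeks.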

How the data were processed

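Neocortex RNA for 62 libraries in 12 groups was prepared with Trizol and a stranded poly(A) library kit, per the labels' protocols, which call the samples biological replicates but also name LLC cells and 3 weeks, a cell type and time of no group here. The authors deposited a single table of TPM values for 47643 symbols, each library summing to the same total. Reads were placed on mm10 according to notes the submitters gave on processing. Which aligner, quantifier, annotation and strand setting they used is not given in the sources used here. Genes that overlap on opposite strands are therefore uncertain. Depth was estimated from low TPM values, of which 86.4% of 207583 were whole reads within a tolerance of 0.05, and was 45.02 M to 50.76 M reads (median 48.2 M), similar in all groups. No library was identical to another (highest correlation 0.9943).

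The 14494 genes whose mean reached 1 TPM were fitted as log2(TPM + 1) in 1 linear model over the 12 groups (50 residual degrees of freedom) with limma 3.58.1 in R 4.3.3, using empirical Bayes moderation with a trend. P-values measure the spread between these libraries, were two-sided and were adjusted for the number of genes (Benjamini-Hochberg), separately for each of the 16 comparisons. Because 1 TPM was added before taking logs, differences of low genes are understated. The fit was tested on simulated data.

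The members and gene lists were chosen with earlier results of these data known, so no p was computed over the list. Named genes are every called member, or the 2 with the lowest p where none was called, up to 5 called genes of the wider list (some of which are not reported here), and values per library for the called members with the lowest p and both transporters. Alternatives were another pseudocount (0.1), no filter, trimmed-mean (TMM) scaling, robust moderation, a replicate block, terms for lane or for 6 marker lists of neighbouring tissues and blood, only the groups compared, and leaving out libraries. Promoter sequences are from RefSeq (GRCm38.p6), gene coordinates from GENCODE.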

Additional observations from a re-analysis of the deposited data

Results flagged for a closer look

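Several single libraries lay far from the rest of their group for one gene. Of 264 combinations of gene or score and group that were examined, 14 had a highest or lowest library whose gap to its neighbour exceeded the 95% critical value of Dixon's test, and chance flags about 1 in 20. In NCAC at 2 weeks, replicate 4 was far below the others for Stx1a (233 TPM), Cplx1 (945 TPM) and Syn1 (431 TPM). In CAC at 6 weeks, replicate 1 was high for Rab3a (749.8 TPM) and replicate 2 low for Amph (129 TPM) and Napb (226 TPM). In mock at 6 weeks, replicate 1 was high for Snap25 (1380 TPM) and Napb (310.3 TPM), and replicate 3 was low for Cplx1 (1016 TPM). In CAC at 8 weeks, replicate 5 was low for Slc17a7 (986 TPM), Syt11 (448 TPM), Cplx2 (794 TPM) and Syp (665 TPM). In NCAC at 8 weeks, replicate 5 was low for Syp (672 TPM).

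The difference of CAC from mock in Rims1 was not the same at 2 and 8 weeks by the direct test of the change, -0.46 on the log2 scale (limma, adjusted p = 0.0333, n = 5 to 7 libraries per group), and this call was lost in 16 of 31 alternatives.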

How the results depend on the processing

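Depth was similar in all groups and did not limit one more than another. Of 641 alternative values for the named genes, 416 kept their call, 225 lost it and none changed sign. The counts of called members varied as follows. For CAC against mock at 2 weeks (10 called) they were 5 with TMM scaling and 0 with 6 marker lists of neighbouring tissues and blood as terms, with only the groups compared, and without 2 mock libraries of week 2 (replicates 3 and 5). For NCAC against mock at 2 weeks (14 called) they were 1, 0 and 0 under the last 3 of these. For CAC against mock at 8 weeks (4 called) they were 2 with a replicate block, 2 with only the groups compared and 7 without the 3 libraries that stand apart. Over all genes the block gave 267 higher and 231 lower there, from 712 and 535. For CAC against NCAC at 6 weeks (3 called) they were 0 without a filter, with marker terms or with only the groups compared. Over all genes these settings gave 756 higher and 148 lower, 296 and 66, and 480 and 148, from 1167 and 232. For CAC against NCAC at 8 weeks (1 called) they were 2 with TMM scaling, 0 with the block, 2 with marker terms, 0 with only the groups compared and 7 without the 3 libraries. Over all genes the block gave 200 higher and 90 lower, marker terms 714 and 322, and only the groups compared 208 and 76, from 636 and 237. For the change of CAC against mock from 2 to 8 weeks (1 called) they were 2 with TMM scaling and 0 without a filter, with marker terms, with only the groups compared, without the 3 libraries and without the 2 mock libraries. Over all genes these 6 settings gave, in that order, 117 higher and 93 lower, 40 and 36, 65 and 56, 27 and 12, 123 and 106, and 31 and 27. As reported they were 88 and 103. The cause was not tested. Fewer samples inform the spread where libraries are left out or only the compared groups are used. Calls over all genes did not always drop with only the groups compared. They went from 0 to 111 higher and 16 lower in mock at 8 against 4 weeks. In CAC against mock at 8 weeks they went from 712 higher and 535 lower to 547 and 403. At 2 weeks they went from 533 and 87 to 0 and 0. Without the 3 libraries, CAC at 8 weeks had 1250 and 770 calls against mock and 1519 and 456 against NCAC, over all genes.

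Leaving out 1 library gave 3 to 14 called for CAC against mock at 2 weeks, with 3 without CAC replicate 1 or 5 and 5 without mock replicate 1. It gave 5 to 18 for NCAC, with 5 without NCAC replicate 1, 2 or 5 and 9 without mock replicate 2 or 3. For CAC against mock it gave 0 to 1 at 4 weeks, 0 to 1 at 6 weeks and 2 to 7 at 8 weeks (2 without CAC replicate 1 or 6, 7 without CAC replicate 5 or mock replicate 2). For CAC against NCAC it gave 0 to 1 at 4 weeks, 0 to 6 at 6 weeks and 0 to 6 at 8 weeks, and for the change from 2 to 8 weeks 0 to 5. In all other comparisons it gave 0.

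The mean difference over the 34 genes moved by more than 1 SD (0.0714) in 4 cases, each with a change of sign. With lane as a term, which rests on 1 NCAC library, it was 0.0923 for CAC against mock at 4 weeks, from -0.01. For NCAC against mock at 4 weeks it was 0.0512, from -0.03. With TMM scaling it was -0.0266 for CAC against NCAC at 6 weeks, from 0.06, and -0.0147 for mock at 8 against 4 weeks, from 0.06. TMM scaling also changed the calls over all genes, from 533 higher and 87 lower to 338 and 195 in CAC against mock at 2 weeks, from 851 and 411 to 849 and 814 in NCAC against mock, from 174 and 62 to 127 and 98 in CAC against mock at 6 weeks, from 1167 and 232 to 294 and 434 in CAC against NCAC at 6 weeks, and from 636 and 237 to 396 and 432 at 8 weeks. Replicate numbers showed no full pairing of the samples: in 0 of 12 comparisons did every same-numbered pair correlate above 0.1, and in 0 did every library correlate best with its own number. These rules need every pair to pass and would miss a partial pairing. Mean same-number correlations ran from -0.0848 (CAC against mock at 2 weeks) to 0.136 (CAC against NCAC at 4 weeks). With the replicate block the counts of called members at 2 weeks against mock were 12 in CAC and 16 in NCAC. Over all genes the block gave 591 higher and 103 lower in CAC and 853 and 352 in NCAC.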

Other observations

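Members varied in how closely they followed the rest of the machinery. Over the 62 libraries, within groups and as a description only, the level of Syt1 correlated at 0.91 with the mean of the other 33 members, and Amph (0.84), Sv2b (0.83), Nsf (0.83) and Synj1 (0.82) followed. At the other end Doc2b gave -0.15, Slc32a1 -0.13 and Cplx2 -0.02, and Rims1 0.16. The points share libraries and scaling. The mean of the members correlated with excitatory neuron markers (members removed) at 0.68 over all 62 libraries and at 0.54 within groups, with inhibitory neuron markers at 0.56 and 0.49, and with microglia markers at -0.51 and -0.41. Of the 34 members, 20 had a within-group SD below the median of all genes, 0.138 on the log2 scale. The steadiest was Vamp2 with 0.0602, and Doc2b (0.263) and Slc32a1 (0.212) were the most variable.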
